A study of Mus musculus with 24 samples.

Results

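Ceramides are the central lipids of sphingolipid metabolism, and 10 genes that encode enzymes making or removing them were followed in the liver, inguinal white adipose tissue (iWAT), gastrocnemius muscle (GM, labelled as skeletal muscle) and hypothalamus of mice with a hepatocyte deletion of *Crif1*. They were taken by their gene symbols from a table of 24532 genes. They comprise 3 ceramidases (*Asah1*, *Acer2*, *Acer3*), 5 ceramide synthases (*Cers1*, *Cers2*, *Cers4*, *Cers5*, *Cers6*) and 2 dihydroceramide desaturases (*Degs1*, *Degs2*), and all 10 were present in the table. LKO mice carried Alb-Cre and the floxed allele (Alb-Cre;Crif1flox/flox), and Ctrl mice carried the same floxed allele (Crif1flox/flox) without Cre. All were C57BL/6 mice fed chow and labelled as 8 weeks of age, with 3 libraries of each genotype in each of the 4 tissues, 24 in all. The albumin promoter drives Cre in hepatocytes, so the deletion is directed at these cells and not at the other 3 tissues. *Crif1* was not measured by cell type. *Crif1* encodes a component of mitochondrial ribosomes. The labels do not say which libraries came from the same mouse, and p-values measure the spread between these libraries.

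Ceramide is built in the endoplasmic reticulum. Serine palmitoyltransferase condenses serine with a fatty acyl-CoA, ceramide synthases (CERS) attach a second acyl chain, and dihydroceramide desaturases (DEGS) then insert the double bond that turns dihydroceramide into ceramide. The synthases differ in the acyl chain they prefer. CERS2 makes very long chain ceramides and is the main form of the liver, CERS1 makes the C18 ceramides typical of neurons and skeletal muscle, CERS4 makes long chain ceramides, and CERS5 and CERS6 make C16 ceramide. Ceramidases cut ceramide back to sphingosine and a free fatty acid, which is the step before sphingosine 1-phosphate. ASAH1 is the acid ceramidase of the lysosome, ACER2 is the alkaline ceramidase of the Golgi apparatus and ACER3 is an alkaline ceramidase with a broad tissue distribution. In liver and muscle, ceramides are known for their link with insulin resistance.

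Promoter windows, from 250 bases before to 50 bases after the transcription start in RefSeq on GRCm38.p6, were listed for 9 of the 10 genes (11 windows), and *Asah1* had no entry. The windows of 4 of the genes that were higher in LKO liver are shown, 5′ to 3′ on the strand of the gene, because their levels there carry the liver result. Capitals mark matches, on either strand, to 4 motifs named here by their letters, TGATGNAA (the composite site of ATF4 and C/EBP), CACGTG (an E-box), GGGCGG (a GC box) and CCAAT, and to the p53 half-site.
Acer2, chr4:86874164-86874463, plus strand: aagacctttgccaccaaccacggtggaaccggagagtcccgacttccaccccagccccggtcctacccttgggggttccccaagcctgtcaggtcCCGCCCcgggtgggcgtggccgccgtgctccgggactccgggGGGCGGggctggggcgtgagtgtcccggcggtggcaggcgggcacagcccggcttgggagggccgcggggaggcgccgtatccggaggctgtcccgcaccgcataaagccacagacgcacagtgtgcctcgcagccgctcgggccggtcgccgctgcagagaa
Degs1, chr1:182282146-182282445, minus strand: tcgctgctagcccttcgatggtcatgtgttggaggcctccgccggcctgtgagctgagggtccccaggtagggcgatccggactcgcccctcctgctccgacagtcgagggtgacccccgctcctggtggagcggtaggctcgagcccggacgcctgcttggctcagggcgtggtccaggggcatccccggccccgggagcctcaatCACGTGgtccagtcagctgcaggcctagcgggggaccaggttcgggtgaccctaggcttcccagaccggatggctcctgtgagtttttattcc
Cers5, chr15:99772466-99772765, minus strand: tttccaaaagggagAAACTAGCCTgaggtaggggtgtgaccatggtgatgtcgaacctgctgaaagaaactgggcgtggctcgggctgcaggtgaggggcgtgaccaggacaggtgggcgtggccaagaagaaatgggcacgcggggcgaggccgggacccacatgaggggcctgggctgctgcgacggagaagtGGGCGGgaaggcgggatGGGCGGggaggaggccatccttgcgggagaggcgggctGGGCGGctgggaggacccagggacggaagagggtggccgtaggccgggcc
Cers6, chr2:68861191-68861490, plus strand: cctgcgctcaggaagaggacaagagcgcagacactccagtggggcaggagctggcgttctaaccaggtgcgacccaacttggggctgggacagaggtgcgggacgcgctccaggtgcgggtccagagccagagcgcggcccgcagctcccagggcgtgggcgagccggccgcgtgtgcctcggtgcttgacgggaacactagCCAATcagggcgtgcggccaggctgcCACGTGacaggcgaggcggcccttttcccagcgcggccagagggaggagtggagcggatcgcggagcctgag
With the first transcribed base as position 0, the *Acer2* window held GC boxes at positions -155 and -113. The *Degs1* window held an E-box at -43, and the *Cers6* window held an E-box at -22 and a CCAAT box at -48. The *Cers5* window held GC boxes at -55, -38 and 0 and a p53 half-site at -236. The composite site of ATF4 and C/EBP was in 0 of the 11 windows. Among all 32851 windows of the table, 3.97% held that composite site, 7.15% the E-box, 35.7% the GC box, 37.4% the CCAAT box and 8.36% the p53 half-site. In 9 of the 11 windows the number of CpG dinucleotides was above the median of all windows (7), and the *Acer2* window held 31 of them at a G+C content of 73.0%, against a median of 52.7%. The motifs do not overlap each other in these windows, and a match is a description of the letters only. For *Degs1* the RefSeq start lies inside the span that the deposited table gives.

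The values are FPKM, which count sequenced fragments per length of transcript and per size of the library, and can be compared between genes because they are per length. The depth inferred from them was 4.45 to 8.09 gigabases per library. A fold change is a difference of log2(FPKM + 1), LKO minus Ctrl, from limma, and a gene was called at an adjusted p under 0.05 (Benjamini-Hochberg over all genes tested in the tissue). A test needed 1 FPKM or more in 3 or more of the 6 libraries of the tissue. Libraries of the same group correlated at 0.9825 or more over genes, and the summed markers of each tissue were high where its label said. In Ctrl libraries, 5 hepatocyte markers summed to at least 57874 FPKM in liver, 5 adipocyte markers to at least 20903 in iWAT, 5 muscle markers to at least 91107 in GM and 6 neuron markers to at least 1590 in hypothalamus. *Crif1*, listed as *Gadd45gip1*, stood at 14.6, 12.5 and 13.6 FPKM in Ctrl livers and at 5.40, 2.0 and 2.51 FPKM in LKO livers 1 to 3. Its log2 fold change in liver was -1.84 (SE 0.27, adjusted p = 0.00357), and in iWAT, GM and hypothalamus it was -0.22, 0.02 and -0.06 with overlapping groups.

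In control mice the 10 genes had different levels in the 4 tissues. *Cers2* was the synthase with the highest level in each tissue by these assignments, and its level was highest in liver, at 159.9, 147.5 and 142.1 FPKM. Its mean fell in the order liver (149.9 FPKM), iWAT (90.7), hypothalamus (48.5) and GM (13.3), and each step of that order was past the threshold, the smallest being 0.72 on the log2 scale between iWAT and liver (SE 0.09, adjusted p = 8.61e-06). The other synthases were low in liver. *Cers4* had a mean of 0.661 FPKM in control liver, 1.54 in GM, 8.53 in iWAT and 27.5 in hypothalamus. *Cers5* had 1.01 in liver, 3.8 in GM, 23.4 in hypothalamus and 29.7 in iWAT. *Cers6* had 0.214 in GM, 2.11 in liver, 3.36 in iWAT and 4.99 in hypothalamus. All neighbouring tissues in these 3 orders differed, with the weakest call between iWAT and liver for *Cers6* (0.47 on the log2 scale, SE 0.17, adjusted p = 0.0204). *Cers1* was listed at 0 in every liver library of both genotypes, and its levels elsewhere are given further on with those of *Gdf1*.

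The desaturases and ceramidases had orders of their own. *Degs1*, the main dihydroceramide desaturase, had mean levels of 10.8 FPKM in control GM, 30.7 in liver, 46.8 in hypothalamus and 58.1 in iWAT. *Degs2*, which can also hydroxylate dihydroceramide to phytoceramide, was highest in hypothalamus (8.36 FPKM), followed by iWAT (1.56), GM (0.513) and liver (0.216), and GM and liver did not differ beyond their spread (0.31 on the log2 scale, adjusted p = 0.129). *Asah1* was the most abundant ceramidase transcript in each control tissue, with 7.92 FPKM in GM, 12.03 in liver, 29.9 in hypothalamus and 44.2 in iWAT. *Acer2* ran from 0.919 FPKM in GM through 3.14 in liver and 4.18 in hypothalamus to 15.7 in iWAT. *Acer3* was at 0.698 FPKM in GM and at 2.58, 2.98 and 2.99 in liver, iWAT and hypothalamus, and these 3 tissues were not separated (adjusted p of 0.448 and 0.848 between neighbours). Each step in the orders of *Degs1*, *Asah1* and *Acer2* was past the threshold, with the weakest call between liver and hypothalamus for *Acer2* (0.33 on the log2 scale, SE 0.12, adjusted p = 0.0190). By the F test over the 4 control tissues all 10 genes passed, as did 99% of the 15320 genes tested.

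**Figure D1:**
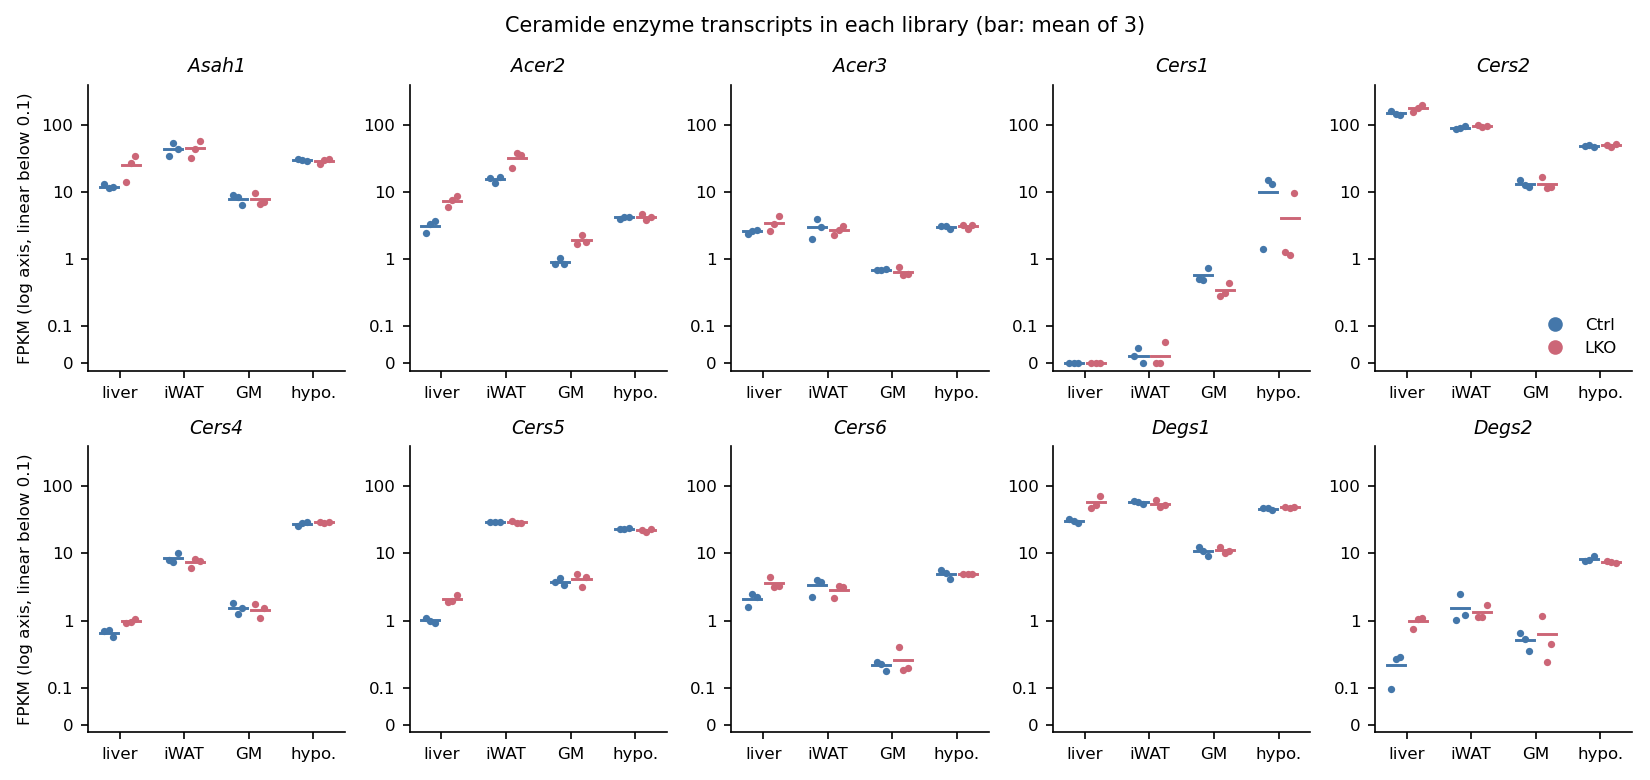
FPKM of the 10 ceramide enzyme genes in each of the 24 libraries (points), by tissue and genotype, with bars for the mean of 3 libraries, on a log axis that is linear below 0.1. In liver, the LKO points of *Acer2*, *Asah1*, *Cers5*, *Cers6* and *Degs1* lie above the Ctrl points, as for 53% of the liver genes tested. So do those of *Cers4* and *Degs2*, which were under the filter. *Acer2* also separates in iWAT and GM, as 9.76% and 4.38% of the genes tested there did upward. LKO reached 22.8 to 37.6 and 1.70 to 2.31 FPKM in these 2 tissues.

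In the liver of LKO mice, transcripts of both ends of ceramide metabolism were higher. Of the 7 genes tested, 5 rose: the ceramidases *Acer2* and *Asah1*, the C16 ceramide synthases *Cers5* and *Cers6*, and the desaturase *Degs1*. *Cers2* and *Acer3* did not pass the test, and 0 of the 7 fell. *Cers5* reached the level needed for a test only through the LKO livers. Among the genes that reached it in both genotypes, 2 of 3 ceramidases, 1 of 2 synthases and 1 of 1 desaturases were called higher. The share of all 10956 liver genes called higher was 38.3%, and the share called lower was 5.49%, so rising was common in this tissue. The median log2 fold change over all tested liver genes was 0.33, and it was -0.04 after median-ratio scaling of the libraries. After that scaling 3 of the 7 tested genes were called higher, *Acer2*, *Degs1* and *Cers5*, against 15.2% of all liver genes. In the TPM values 8 of the 10 genes were called, while 54.6% of all genes tested were called higher and 4.16% lower.

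*Acer2* (NCBI Gene 230379, chromosome 4 from 86874414 to 86932490, plus strand), the alkaline ceramidase of the Golgi, stood at 2.43, 3.28 and 3.72 FPKM in Ctrl livers and at 5.88, 7.72 and 8.63 FPKM in LKO livers. Every LKO liver was above every Ctrl liver, which was so for 53% of the liver genes tested. The ratio of the means was 2.36, and the log2 fold change was 1.02 (SE 0.18, adjusted p = 0.00599), the largest of the 7 tested genes. Median-ratio scaling brought it to 0.65 (adjusted p = 0.016).

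*Asah1* (NCBI Gene 11886, chromosome 8 from 41340646 to 41374697, minus strand), the lysosomal acid ceramidase, stood at 13.0, 11.3 and 11.8 FPKM in Ctrl livers and at 14.1, 27.2 and 34.9 FPKM in LKO livers. The LKO livers spread widely, and LKO 1 was close to the Ctrl livers. The log2 fold change was 0.93 (SE 0.29, adjusted p = 0.0391). The call was lost without any 1 of Ctrl 1, Ctrl 2, Ctrl 3, LKO 2 or LKO 3, with values of 0.66 to 0.98 and adjusted p of 0.0867 to 0.123. It was also lost with no filter on low values (adjusted p = 0.0679) and with median-ratio scaling (0.51, adjusted p = 0.111). *Acer3* (NCBI Gene 66190, chromosome 7 from 98213660 to 98309527, minus strand) was at 2.37, 2.66 and 2.72 FPKM in Ctrl livers and at 2.63, 3.33 and 4.46 in LKO livers, with overlapping groups and a log2 fold change of 0.30 (95% interval -0.08 to 0.68, adjusted p = 0.160). It was called without LKO 1 (0.44, adjusted p = 0.0166), and its direction turned after median-ratio scaling (-0.04).

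*Degs1* (NCBI Gene 13244, chromosome 1 from 182275770 to 182282759, minus strand), the desaturase that completes ceramide, was at 32.9, 30.6 and 28.6 FPKM in Ctrl livers and at 47.7, 52.9 and 72.5 FPKM in LKO livers, without overlap. Its log2 fold change was 0.87 (SE 0.16, adjusted p = 0.00790), and median-ratio scaling brought it to 0.43 (adjusted p = 0.0209). *Degs2* (NCBI Gene 70059, chromosome 12 from 108686792 to 108702306, minus strand) was under the filter of 1 FPKM and was not tested. It was listed at 0.0973, 0.264 and 0.287 FPKM in Ctrl livers and at 0.755, 1.06 and 1.11 in LKO livers, a ratio of means of 4.51 at these low levels. Its LKO values were above its Ctrl values in every library. With no filter limma called it higher (0.70, adjusted p = 0.00786). The exons of *Degs2* share 278 bases (10.8% of its exonic bases in GENCODE) with *Evl* on the other strand, and the library kit does not mark strand.

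*Cers5* (NCBI Gene 71949, chromosome 15 from 99735592 to 99772515, minus strand) was at 1.11, 0.984 and 0.936 FPKM in Ctrl livers and at 1.89, 1.98 and 2.44 FPKM in LKO livers, so that its groups stood apart. It passed the filter only through the LKO livers, since 1 Ctrl liver reached 1 FPKM, so its place among the tested genes depended on the difference itself. Its log2 fold change was 0.62 (SE 0.11, adjusted p = 0.00642), and median-ratio scaling brought it to 0.36 (adjusted p = 0.0167). The call was lost with quantile normalization (0.22, adjusted p = 0.0774). *Cers6* (NCBI Gene 241447, chromosome 2 from 68861441 to 69114283, plus strand), which also makes C16 ceramide, was at 1.60, 2.51 and 2.22 FPKM in Ctrl livers and at 4.39, 3.20 and 3.24 FPKM in LKO livers. Its LKO livers were all above the Ctrl livers, with the highest value in LKO 1, the liver in which *Asah1*, *Acer2*, *Acer3*, *Cers5* and *Degs1* had their lowest LKO value. The log2 fold change of *Cers6* was 0.57 (SE 0.16, adjusted p = 0.0282), and the call was lost without any 1 of Ctrl 1, Ctrl 2, Ctrl 3 or LKO 2 (0.45 to 0.66, adjusted p of 0.0527 to 0.0915), with no filter on low values (adjusted p = 0.0522) and with median-ratio scaling (0.25, adjusted p = 0.358).

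*Cers2* (NCBI Gene 76893, chromosome 3 from 95315190 to 95323599, plus strand), the very long chain synthase that dominated the control liver, was at 159.9, 147.5 and 142.1 FPKM in Ctrl livers and at 155.3, 181.1 and 199.9 in LKO livers. The groups overlapped, and the log2 fold change was 0.25 (95% interval -0.05 to 0.54, adjusted p = 0.137). It was called without LKO 1 (0.34, adjusted p = 0.0189), and it turned to -0.19 after median-ratio scaling. *Cers4* (NCBI Gene 67260, chromosome 8 from 4493405 to 4526079, plus strand) was under the filter, at 0.706, 0.713 and 0.564 FPKM in Ctrl livers and at 0.921, 0.939 and 1.07 in LKO livers, without overlap. With no filter limma called it higher at these low levels (0.25, adjusted p = 0.0455).

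Markers of other cells moved in the same livers. All 8 Kupffer cell and macrophage markers were called higher, with a summed level of 113.2 to 117.2 FPKM in Ctrl livers and of 248.5, 293.7 and 406.7 FPKM in LKO 1, 2 and 3, and 0 of the 8 were at 0 in all 6 livers. For 5 monocyte and neutrophil markers (2 tested, both higher) the sum was 1.78 to 2.09 FPKM in Ctrl and 10.1 to 13.2 in LKO livers, and for 5 cholangiocyte markers (all 5 higher) it was 30.7 to 31.8 and 41.6 to 88.9. Of 5 hepatocyte markers 2 were called lower, with overlapping sums (57874 to 60944 FPKM in Ctrl and 41620 to 67364 in LKO livers). Among 5 adipocyte markers 2 were tested and both were higher, and both tested genes of 5 mammary epithelial markers were higher, namely the keratins *Krt8* and *Krt18*. The list of 6 neuron markers had 1 tested gene, which was lower, the 5 skeletal muscle and 4 tested blood markers had 0 calls, and no B cell or oligodendrocyte marker was tested in liver. Both tested monocyte and neutrophil markers, 4 of the 5 cholangiocyte markers and 1 of the 2 tested adipocyte markers passed the filter only through the LKO livers, so that their counts of calls are no support, while all 8 macrophage markers passed it in both genotypes. The contribution of these cells to the levels of the ceramide enzymes was not tested. In whole tissue, a change in the number of cells of a type and a change in RNA per cell cannot be told apart. In iWAT, GM and hypothalamus, 0 markers of any of these lists were called, beside 0%, 0% and 0.0217% of all genes tested there. With so few calls of any gene, these counts cannot show whether the make-up of those tissues moved.

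**Figure D2:**
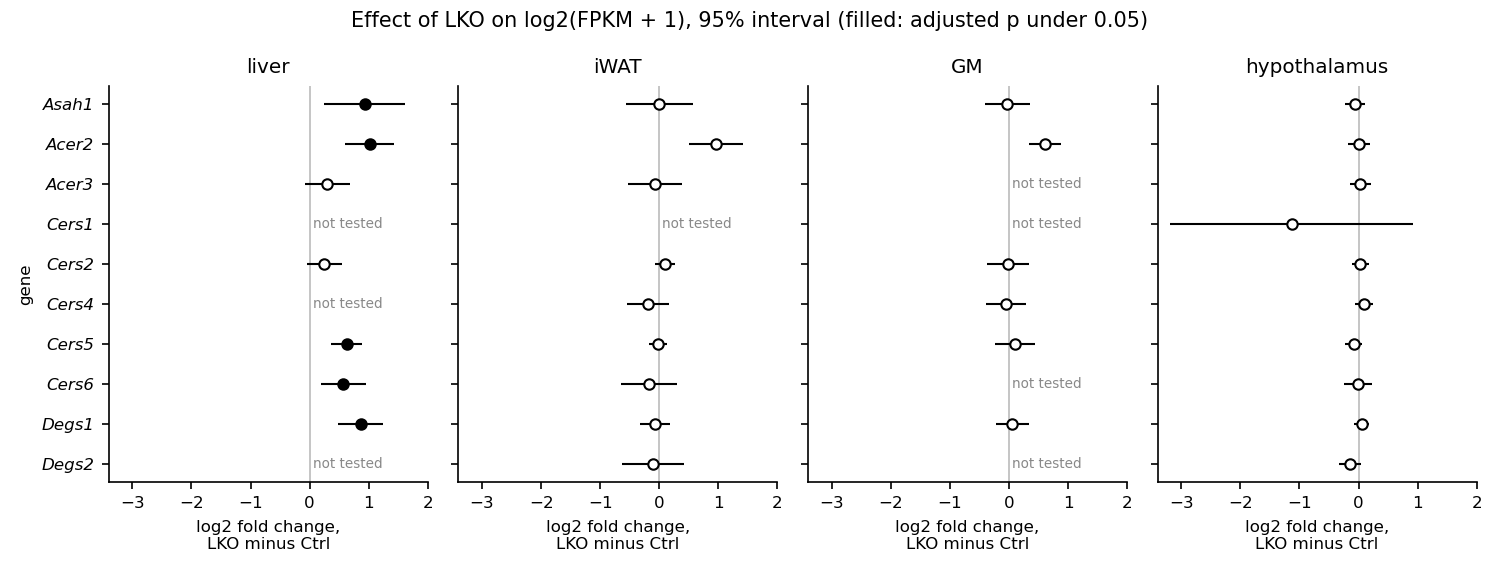
Log2 fold change of log2(FPKM + 1), LKO minus Ctrl, with the 95% interval from limma, for the 10 genes in 4 tissues. Filled points have an adjusted p under 0.05, which occurs only in liver for *Asah1*, *Acer2*, *Cers5*, *Cers6* and *Degs1*, and genes under the filter are marked as not tested.

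In iWAT, 9 of the 10 genes were tested and 0 were called by the adjusted p, as for 0% of the 12288 genes tested there. At a fold change of at least 1.5 with an unadjusted p under 0.05, the only ceramide enzyme gene that passed was *Acer2*, against 1.95% of all genes in the upward direction, and it was also the only one of the 9 with an unadjusted p under 0.05 at any fold, beside 15% of all genes. *Acer2* stood at 16.3, 13.8 and 16.9 FPKM in Ctrl iWAT and at 22.8, 37.6 and 35.6 FPKM in LKO iWAT. The groups did not overlap, with LKO higher, which was so for 9.76% of the genes tested in iWAT. The log2 fold change was 0.96 (SE 0.19, adjusted p = 0.116). The adjusted p passed the threshold in a fit of all 24 libraries (0.00151) and without LKO 1 (1.17, adjusted p = 0.0460). The fit of 24 libraries also called 6 other sphingolipid genes higher in iWAT, so passing it was not particular to *Acer2*. The shares of all iWAT genes called in these fits are not given here. The 5 adipocyte markers summed to 20903 to 24569 FPKM in Ctrl iWAT and 25729 to 27052 in LKO iWAT, and the macrophage markers to 127.4 to 337.0 and 126.2 to 181.6. The 5 blood markers summed to 477.4 to 1308 FPKM in Ctrl and 852.8 to 1751 in LKO iWAT, with 3 of 4 tested genes at an unadjusted p under 0.05 and a median log2 fold change of 1.02. The 5 oligodendrocyte markers summed to 58.5 to 76.7 and 83.6 to 117.4 FPKM, without overlap, with 2 of 3 tested genes at that level. Their contribution to the level of *Acer2* was not tested.

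The other 8 tested genes overlapped between the genotypes in iWAT. *Cers5* was at 29.7, 29.4 and 30.0 FPKM in Ctrl and 30.4, 28.8 and 28.3 in LKO iWAT, a log2 fold change of -0.02 with a 95% interval of -0.18 to 0.13. *Cers2* had a log2 fold change of 0.10 (-0.07 to 0.27) and *Degs1* one of -0.07 (-0.33 to 0.19). The interval of *Cers5* was the narrowest of the 9 tested genes in iWAT. Wider intervals were found for *Asah1* (-0.57 to 0.56), *Acer3* (-0.54 to 0.39), *Cers6* (-0.64 to 0.31), *Cers4* (-0.54 to 0.16) and *Degs2* (-0.63 to 0.43).

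In GM, 6 of the 10 genes were tested and 0 were called, against 0% of the 10877 genes tested. *Acer2* again passed the unadjusted criterion, as 0.579% of all genes did in the upward direction, and no other tested ceramide enzyme gene had an unadjusted p under 0.05 there (6.83% of all genes did). It stood at 0.857, 1.06 and 0.844 FPKM in Ctrl GM and at 1.70, 2.31 and 1.77 FPKM in LKO GM. It passed the filter only through the LKO libraries, so its place among the tested genes is no support for the difference, and with no filter the adjusted p was 0.740. All 3 LKO values were above the Ctrl values, a separation seen for 4.38% of the genes tested in GM. Its log2 fold change was 0.61 (SE 0.11, adjusted p = 0.379). The monocyte and neutrophil markers summed to 5.03 to 5.46 FPKM in Ctrl GM and to 11.8, 6.38 and 6.36 in LKO GM 1 to 3, without overlap. LKO 1 also had the highest summed level of B cell markers (23.9 FPKM, against 0.0144 and 0.0026 in LKO 2 and 3 and 0.0266 to 5.39 in Ctrl), of macrophage markers (15.2, against at most 8.09 in the other 5) and of adipocyte markers (684.8, against at most 525.6). Without LKO 1 the log2 fold change of *Acer2* was 0.66 (adjusted p = 0.0902). The contribution of these cells was not tested. The 5 other genes overlapped, with log2 fold changes between -0.05 (*Cers4*) and 0.10 (*Cers5*), and *Cers2* was at 15.2, 12.7 and 12.1 FPKM in Ctrl and 16.6, 11.3 and 12.1 in LKO GM. *Acer3*, *Cers1*, *Cers6* and *Degs2* were under the filter.

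In hypothalamus all 10 genes were tested and 0 were called by limma, against 0.0217% of 13828 genes in the downward direction, and 0 of the 10 had an unadjusted p under 0.05, which 3.72% of all genes had. *Acer2* was at 4.0, 4.30 and 4.23 FPKM in Ctrl and 4.64, 3.78 and 4.23 in LKO hypothalamus, a log2 fold change of 0.01 with a 95% interval of -0.19 to 0.20. *Degs2* was the only one of the 10 whose groups did not overlap there, at 7.76, 8.04 and 9.27 FPKM in Ctrl and 7.68, 7.5 and 7.14 in LKO mice, as 4.97% of the genes tested were in the downward direction. Its log2 fold change was -0.15 (SE 0.08, adjusted p = 0.999). The other genes apart from *Cers1* had log2 fold changes between -0.08 (*Cers5*) and 0.09 (*Cers4*).

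The effect of LKO was then compared between the tissues in 1 fit of all 24 libraries. The F test of the difference between tissues passed for 4 of the 10 genes, *Degs1* (adjusted p = 0.00184), *Cers5* (0.00328), *Acer2* (0.00650) and *Degs2* (0.0467), against 33.5% of the 15849 genes tested. For *Degs1* the effect in iWAT, GM and hypothalamus was lower than in liver by 0.94, 0.81 and 0.81 on the log2 scale (differences of -0.94, -0.81 and -0.81), and for *Cers5* the differences were -0.65, -0.52 and -0.71. *Acer2* had another pattern. Its effect differed from liver by -0.06 in iWAT, -0.41 in GM and -1.01 in hypothalamus. For *Asah1* (adjusted p = 0.0676) and *Cers6* (0.0564) the test was not passed. *Asah1* passed without liver LKO 1 (0.00129), iWAT Ctrl 1 (0.0481), iWAT LKO 3 (0.0439) or GM LKO 1 (0.0482), *Cers6* without iWAT Ctrl 1 (0.00899), GM LKO 1 (0.0477) or hypothalamus Ctrl 3 (0.0413), and *Cers1* without hypothalamus Ctrl 1 (0.0211). The call of *Degs2* rested on low liver values and was lost without any of 16 of the 24 libraries. After median-ratio scaling *Acer2* and *Cers5* remained and *Degs1* had an adjusted p of 0.0515. The call of *Cers5* was lost when the libraries were quantile normalized (0.201). *Cers1* alone had 0.542, and the sum of *Cers1* and *Gdf1*, which share exons as described further on, had 0.0301.

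Within the 3 ceramidases, the share of *Acer2* in their summed FPKM was 13.7, 19.0 and 20.4% in Ctrl livers and 26.0, 20.2 and 18.0% in LKO livers, with overlap. In iWAT it was 30.8, 19.2 and 26.7% in Ctrl and 39.8, 44.4 and 37.1% in LKO mice. In GM it was 8.04, 10.5 and 10.6% in Ctrl and 14.1, 24.1 and 18.9% in LKO mice. The share of *Acer2* was thus higher in every LKO library than in every Ctrl library of iWAT and GM, by 14.9 and 9.30 percentage points, and the share of *Asah1* was lower by 13.7 and 8.15 points (differences of -13.7 and -8.15). In hypothalamus the share of *Acer2* was 11.3% ± 0.663 (SD, n = 3) in Ctrl and 11.7% ± 1.69 in LKO mice. The exact two-sided permutation test cannot go below 0.1 with 3 against 3, which is what these differences in iWAT and GM gave, and the adjusted value over the 40 shares was 0.267. *Acer3* made up 14.6% ± 1.10 of the ceramidase FPKM in Ctrl livers and 9.88% ± 1.56 in LKO livers, without overlap.

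**Figure D3:**
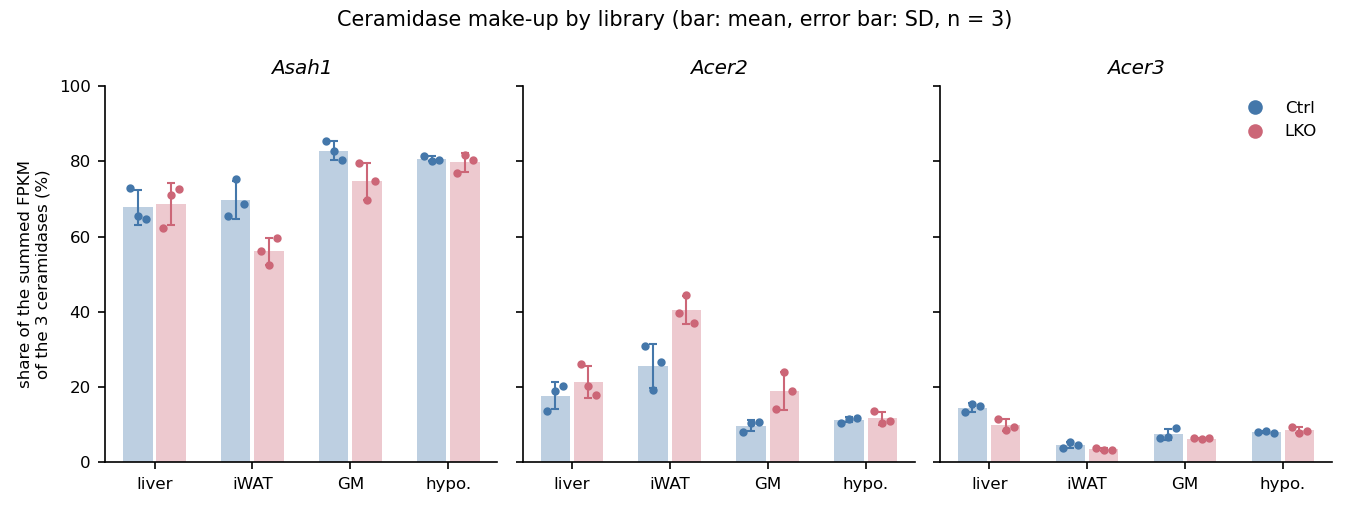
Share of each ceramidase in the summed FPKM of *Asah1*, *Acer2* and *Acer3* (%), by library (points), with the mean (bar) and SD (error bar) of 3 libraries. In iWAT the LKO points of *Acer2* lie at 37.1 to 44.4%, above the Ctrl points at 19.2 to 30.8%, while hypothalamus shows 10.4 to 13.6% in LKO and 10.5 to 11.8% in Ctrl mice.

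Among the synthases, *Cers2* made up 97.5% ± 0.347 of the summed FPKM in Ctrl livers and 96.3% ± 0.673 in LKO livers. *Cers5* made up 0.679, 0.649 and 0.642% in Ctrl livers and 1.16, 1.06 and 1.18% in LKO livers. The C16 synthase *Cers5* thus took a larger share in every LKO liver than in any Ctrl liver, in a pool that was at least 95.6% *Cers2* in every liver. The share of *Cers6* was 1.39% ± 0.356 in Ctrl and 2.0% ± 0.619 in LKO livers, with overlap. In iWAT *Cers2* made up 68.6% ± 0.340 of the pool in Ctrl and 71.2% ± 1.12 in LKO mice, without overlap, and *Cers5* was at 22.5% ± 1.01 and 21.4% ± 0.496. For each of the non-overlapping shares the exact permutation p was 0.1 (adjusted 0.267). *Degs1* made up 99.3% ± 0.369 of the desaturase FPKM in Ctrl livers and 98.3% ± 0.255 in LKO livers, and 84.8% ± 1.69 and 86.8% ± 0.553 in hypothalamus.

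*Cers1* needs to be read together with *Gdf1*. Both lie on the plus strand of chromosome 8 (mm10), *Cers1* from 70315775 to 70331588 and *Gdf1* from 70315775 to 70331592, and they are known to be read from 1 bicistronic transcript. In GENCODE all 1349 exonic bases of *Gdf1* lie within exons of *Cers1*, and they make up 42.5% of the exonic bases of *Cers1*, so that reads of the 2 genes could not be told apart there. In hypothalamus *Cers1* was listed at 1.43, 15.2 and 13.1 FPKM in Ctrl and at 1.26, 1.16 and 9.74 FPKM in LKO mice. Within each genotype its values thus split into a low and a high level, and they did not follow the genotype. *Gdf1* was at 53.6, 52.2 and 62.8 FPKM in Ctrl and 62.5, 65.7 and 57.3 in LKO hypothalamus. The log2 fold change of *Cers1* alone was -1.13 (SE 0.87, adjusted p = 0.999), and that of the sum of both was 0.01. In iWAT *Cers1* was under the filter, at a mean of 0.0212 FPKM in Ctrl and 0.0196 in LKO mice. *Gdf1* was there at 1.37, 1.87 and 1.00 FPKM in Ctrl and at 0.926, 1.13 and 0.514 in LKO mice, with overlap.

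In GM *Gdf1* was at 19.9, 20.8 and 22.9 FPKM in Ctrl and at 15.8, 12.9 and 12 FPKM in LKO mice, and *Cers1* was at 0.504, 0.496 and 0.724 and at 0.282, 0.314 and 0.438 FPKM. Both were lower in every LKO library than in any Ctrl library, as for 7.2% of the genes tested in GM. The log2 fold change of *Gdf1* was -0.61 (SE 0.11, adjusted p = 0.379), and that of the sum was -0.61. Counting the sum as *Cers1* changed the make-up of the synthase pool. It then held 53.5% ± 4.39 of the pool in Ctrl GM and 42.2% ± 2.98 in LKO GM, where *Cers2* held 32.8% ± 3.67 and 40.03% ± 1.45. In hypothalamus it held 38.6% ± 3.52 and 38.4% ± 1.14, ahead of *Cers2* with 28.6% ± 2.37 and 28.9% ± 0.750, and in liver it was at most 0.0297% in any library. The order of the synthases in GM and hypothalamus therefore depended on how the locus was assigned.

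**Figure D4:**
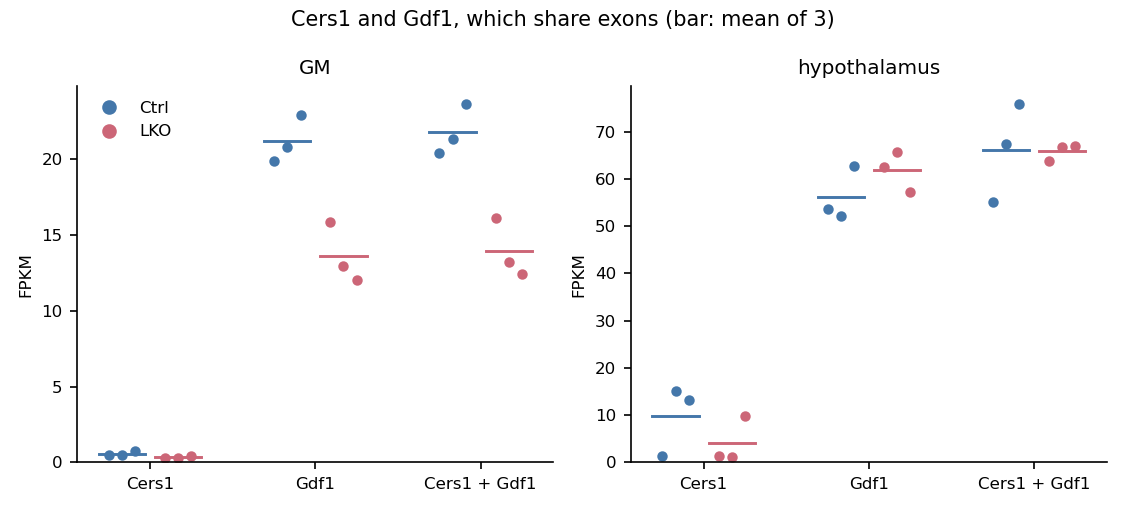
FPKM of *Cers1*, *Gdf1* and their sum in each library (points) of GM and hypothalamus, with bars for the mean of 3. In hypothalamus the *Cers1* points split within both genotypes while the sums of Ctrl (55.1 to 75.9) and LKO (63.8 to 67.0) overlap, and in GM the LKO sums (12.4 to 16.1) lie below the Ctrl sums (20.4 to 23.6).

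The 5 genes whose pattern was most like that of *Acer2* were *Tmem140* (Pearson r = 0.94), *Myzap* (0.91), *Lrrc58* (0.90), *Pde4d* (0.89) and *Lgals4* (0.89). The likeness was taken over the 24 libraries on log2(FPKM + 1) after subtracting the mean of the Ctrl libraries of each tissue, among 9021 genes tested in all 4 tissues, and the libraries share tissue, genotype and depth. Of the ceramide enzymes with values there, *Asah1* (0.53), *Cers5* (0.52), *Degs1* (0.45) and *Cers2* (0.40) were less alike. *Pde4d*, a cyclic AMP phosphodiesterase, had log2 fold changes of 0.82 in liver (adjusted p = 0.00762), 0.90 in iWAT (adjusted p = 0.0930), 0.50 in GM (adjusted p = 0.695) and -0.08 in hypothalamus (adjusted p = 0.999). *Tmem140* had values of 1.10 (adjusted p = 0.00194), 0.90 (0.126), 0.54 (0.626) and 0.06 (0.999) in the same order. Both genes were picked for their likeness to *Acer2* in these same libraries. A like order of fold changes therefore followed from the choice and is no support for the pattern of *Acer2*. Values of the other genes picked are not given here.

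The rest of the sphingolipid pathway was described with 73 other genes, 58 of which were tested in liver. There 28 were called higher and 6 lower, beside 38.3% and 5.49% of all liver genes, and their median log2 fold change was 0.45, beside 0.33 over all liver genes. After median-ratio scaling the calls were 12 higher and 12 lower, beside 15.2% and 17.9% of all liver genes. In iWAT, GM and hypothalamus 0 of 61, 52 and 67 tested genes were called, beside 0%, 0% and 0.0217% of all genes. Their medians were -0.0047, -0.0075 and -0.011 (limma). At an unadjusted p under 0.05, without correction, 18, 1 and 2 of them passed, beside 15%, 6.83% and 3.72% of all genes tested in these tissues.

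Upstream of the synthases, 3 of the 7 tested genes of serine palmitoyltransferase, its regulators and 3-ketosphinganine reductase rose in liver and 0 fell. *Sptlc2*, a catalytic subunit, went from 2.82 ± 0.0777 FPKM (SD, n = 3) in Ctrl to 7.14 ± 2.55 in LKO livers (log2 fold change 1.04, SE 0.23, adjusted p = 0.0140). *Kdsr*, the reductase, rose by 0.57 (adjusted p = 0.0173) and *Sptlc1*, the partner subunit, by 0.54 (adjusted p = 0.0148). The median over the 7 genes was 0.33, as over all liver genes, of which 38.3% were called higher and 5.49% lower. After median-ratio scaling *Sptlc2* was still called (0.68, adjusted p = 0.0209), *Kdsr* and *Sptlc1* were not (adjusted p of 0.105 and 0.238), and 1 gene of the list was called lower. Of 9 tested genes of acyl chain elongation and activation 2 rose and 1 fell. The gene that fell, *Elovl3*, an elongase of very long chain fatty acids, went from 399.2 ± 81.5 FPKM to 27.5 ± 12.8 (log2 fold change -3.92, SE 0.38, adjusted p = 0.00103). *Elovl1*, another elongase of very long chains, rose by 0.58 (adjusted p = 0.0148), and *Hacd2*, a dehydratase of the elongation cycle, by 0.48 (adjusted p = 0.0154). Both calls were lost after median-ratio scaling (adjusted p of 0.146 and 0.586), when 0 genes of that list were called higher and 2 lower.

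Downstream, the transport of ceramide and the making and breaking of glycosphingolipids made up the list with the most calls of the 6, with 13 of 17 tested genes higher and 1 lower (38.3% and 5.49% of all liver genes). After median-ratio scaling 7 were called higher and 2 lower, beside 15.2% and 17.9% of all liver genes. *Hexa*, the alpha subunit of lysosomal beta-hexosaminidase, went from 22.5 ± 2.43 to 77.3 ± 30.9 FPKM (log2 fold change 1.65, SE 0.29, adjusted p = 0.00646). *Arsa*, the lysosomal arylsulfatase A, rose by 1.17 (adjusted p = 0.0284) and *Cerk*, which phosphorylates ceramide, by 1.12 (adjusted p = 0.00152). *Cerk* passed the filter only through the LKO livers, and the call of *Arsa* was lost after median-ratio scaling (adjusted p = 0.0654) and with no filter (0.0525). For sphingomyelin 3 of 7 tested genes rose and 0 fell, a share near the 38.3% of all liver genes, and after median-ratio scaling 1 was called higher. Among the 3 was *Sgms1*, a sphingomyelin synthase of the Golgi (1.12, adjusted p = 0.00236). The other 2 were *Samd8* (0.48, adjusted p = 0.0258) and *Smpdl3a* (0.45, adjusted p = 0.0363), both lost after that scaling.

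For sphingosine and sphingosine 1-phosphate, the products beyond the ceramidases, 4 of 14 tested genes rose and 3 fell, with a median of 0.04, beside 38.3% and 5.49% of all liver genes. After median-ratio scaling 2 were called higher and 6 lower (15.2% and 17.9% of all liver genes). *Plpp2*, a lipid phosphate phosphatase, went from 10.2 ± 1.00 to 41.6 ± 15.5 FPKM (log2 fold change 1.86, SE 0.27, adjusted p = 0.00340). *Aldh3a2*, the fatty aldehyde dehydrogenase that acts after the breakdown of sphingosine 1-phosphate, rose by 0.87 (adjusted p = 0.00751), and the receptor *S1pr2* by 0.84 (adjusted p = 0.0293). The genes that fell were the receptors *S1pr1* (log2 fold change -0.81, adjusted p = 0.0162) and *S1pr5* (-0.45, adjusted p = 0.0294) and the transporter *Spns2* (-0.41, adjusted p = 0.0401). Median-ratio scaling ended the calls of *Aldh3a2* (adjusted p = 0.118) and *S1pr2* (0.0654), and a fit with no filter those of *S1pr2* (0.0556) and *Spns2* (0.0524). *S1pr5* passed the filter only through the Ctrl livers, and 1 of the 4 genes that rose only through the LKO livers. Among the remaining ceramidases and related genes, the neutral ceramidase *Asah2* was at 3.42, 2.66 and 2.92 FPKM in Ctrl and 3.59, 4.99 and 5.15 in LKO livers (0.47, SE 0.15, adjusted p = 0.0416). The call of *Asah2* was lost after median-ratio scaling (0.12, adjusted p = 0.366) and with no filter (adjusted p = 0.0696). *Naaa*, a lysosomal amidase related to acid ceramidase, rose by 0.63 (adjusted p = 0.00901), and *Adipor2*, an adiponectin receptor linked with ceramidase activity, fell by 0.66 on the log2 scale (adjusted p = 0.0118). The other adiponectin receptor, *Adipor1*, rose by 0.34 (adjusted p = 0.0238), a call lost after median-ratio scaling (adjusted p = 0.476). Of the 4 tested genes of this list 3 were called higher and 1 lower, and after that scaling 1 and 1. *Acer1* was listed at 0 in every liver and GM library, and *Cers3*, the synthase of the skin, was below 0.2 FPKM in every library.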

How the data were processed

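Total RNA from liver, iWAT, GM and hypothalamus was made into TruSeq RNA v2 libraries, which do not mark strand, and sequenced as 100-base paired ends. The authors deposited FPKM per gene in 1 joined table on mm10, and for each library FPKM, TPM (scaled to the same sum in each library) and the mean coverage of each gene. The submitters' processing notes name FastQC 0.11.5, Trimmomatic 0.32, HISAT2 2.0.5, Bowtie2 2.2.6, STAR 2.5.2b and StringTie 1.3.3b, without saying which made these values. Read counts were not used here. Genes whose exons overlap share reads, which affects *Cers1*. Dividing coverage by FPKM gave the depth, and counting error could not be given.

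Each tissue was fitted with limma 3.58.1 in R 4.3.3 (lmFit, eBayes with trend) on log2(FPKM + 1), 3 LKO against 3 Ctrl libraries, for genes at 1 FPKM or more in 3 or more libraries. A fit of 24 libraries gave the differences between tissues, and one of the 12 Ctrl libraries the levels. P-values were adjusted (Benjamini-Hochberg) over all genes tested. For shares, exact permutation tests (two-sided) were used. Scripts were tested on simulated data. The 10 genes, the 73 pathway genes and the marker lists were chosen with earlier results of these data known. All 10 genes are covered in every tissue, some by a range or in the figures only. Of each pathway list, up to 3 called genes with the largest change are named, with 5 genes most like *Acer2*, and *Crif1*. *Gdf1*, *S1pr1*, *S1pr5*, *Spns2*, *Acer1*, *Asah2*, *Adipor1*, *Cers3*, *Krt8* and *Krt18* were also named after their values were seen. Promoter windows came from RefSeq (GRCm38.p6) and exons from GENCODE M21.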

Additional observations from a re-analysis of the deposited data

Results flagged for a closer look

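The effect of LKO differed between the 4 tissues for 4 of the 10 genes, by the F test over the differences between tissues in 1 limma fit of 24 libraries, beside 33.5% of the 15849 genes tested. The adjusted p was 0.00184 for *Degs1*, 0.00328 for *Cers5*, 0.00650 for *Acer2* and 0.0467 for *Degs2*. *Degs1* and *Cers5* had log2 fold changes of 0.87 and 0.62 in liver and of -0.07 and -0.02 in iWAT, 0.06 and 0.10 in GM, and 0.06 and -0.08 in hypothalamus. *Acer2* had 1.02, 0.96, 0.61 and 0.01 in the same order. *Degs2* was at most 1.11 FPKM in any liver library, and its log2 fold changes in iWAT and hypothalamus were -0.10 and -0.15. The call of *Degs2* was lost without any of 16 of the 24 libraries, that of *Degs1* with median-ratio scaling (adjusted p = 0.0515) and that of *Cers5* with quantile normalization (adjusted p = 0.201). Groups of 3 libraries were too small for a test of single libraries.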

How the results depend on the processing

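Of the alternatives to the liver count of 5 called genes, a mean of at least 5 FPKM gave 3, median-ratio scaling 3, quantile normalization 2, ordinary variances 3, the TPM values 8 (with 54.6% of all 12112 genes called higher) and leaving out 1 library 3 to 7. TPM placed *Cers4* and *Degs2* above the filter. In iWAT the count of 0 became 1 in the fit of 24 libraries and with a 1.5-fold change at an unadjusted p under 0.05, and 0 to 1 without 1 library, and in GM it became 1 by the latter criterion. The 4 genes whose effect differed between tissues became 2 with median-ratio scaling and 2 with quantile normalization (3 to 6 without 1 library), and the 10 that differed between control tissues became 6 at a mean of at least 5 FPKM. For the 73 pathway genes in liver, the 28 higher and 6 lower calls became 12 and 12 with median-ratio scaling, 11 and 10 with quantile normalization, 13 and 2 with ordinary variances, and 12 to 36 and 1 to 8 without 1 library. A mean of at least 5 FPKM left 17 higher, and the fit of 24 libraries gave 6 higher in iWAT. The shares of all genes called in these fits are not given here.

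The direction turned in liver for *Acer3* (-0.035 with median-ratio scaling, -0.13 with quantile normalization) and *Cers2* (-0.19 with median-ratio scaling). Elsewhere it turned for the values that follow. In iWAT these were *Asah1* (0.028 with TPM, 0.019 with quantile normalization, -0.19 to 0.21 without 1 library), *Cers5* (0.0042 with TPM), *Acer3* (-0.26 to 0.094 without 1 library), *Degs1* (-0.17 to 0.0045) and *Degs2* (-0.25 to 0.14). In GM they were *Asah1* (0.0079 with quantile normalization, -0.17 to 0.068 without 1 library), *Cers2* (0.012 with median-ratio scaling, 0.015 with quantile normalization, -0.17 to 0.087), *Cers4* (-0.14 to 0.067), *Cers5* (-0.011 to 0.25) and *Degs1* (-0.042 to 0.16). In hypothalamus they were *Cers6* (0.013 with TPM, 0.0013 with quantile normalization, -0.12 to 0.075 without 1 library), *Asah1* (-0.097 to 0.013), *Acer2* (-0.049 to 0.070), *Acer3* (-0.0021 to 0.080) and *Cers1* (-1.13, and 0.0068 when summed with *Gdf1*, an alternative chosen after seeing the data, as were all alternatives for the pathway genes). The cause was not tested.

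Deviations from the group means did not settle whether replicate numbers in the labels pair the libraries. In each tissue at least 1 same-numbered pair correlated at or below 0.1, while others were higher. The values were 0.15, 0.01 and 0.03 in liver and 0.26, -0.12 and 0.16 in iWAT. They were 0.37, 0.04 and 0.14 in GM and -0.13, 0.11 and 0.08 in hypothalamus. With the replicate number as a block, 4 liver genes were called (*Cers6* had an adjusted p of 0.0556), 0 in each other tissue, and 3 genes differed between tissues.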

Other observations

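A list of 18 p53 target genes was also measured, of which 15 were tested in liver. There 12 were called higher and 0 lower, beside 38.3% and 5.49% of all liver genes, with a median log2 fold change of 1.37 beside 0.33 over all liver genes, led by *Phlda3* (2.03), *Btg2* (2.01) and *Plk2* (1.97). Of the 12, 2 passed the filter on low values only through the LKO livers, *Phlda3* among them, and of the 13 genes that passed it in both genotypes 10 were called higher. In iWAT, GM and hypothalamus 0 of 16, 14 and 16 tested genes of that list were called, beside 0%, 0% and 0.0217% of all genes. Their medians were 0.13, 0.01 and 0.00. At an unadjusted p under 0.05 in limma 2, 4 and 1 passed, beside 15%, 6.83% and 3.72% of all genes tested. *Acer2*, which is known as a p53 target in human cells, had log2 fold changes of 1.02, 0.96, 0.61 and 0.01 in liver, iWAT, GM and hypothalamus. The part of p53 in them was not tested.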
